A study of Mus musculus with 6 samples.

Results

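The 8 genes described here encode the neurofilament subunits (Nefl, Nefm, Nefh), their partner alpha-internexin (Ina), and the microtubule-associated proteins MAP1A, MAP1B, MAP2 and tau (Map1a, Map1b, Map2, Mapt). They were measured in tissue of the deep cerebellar nuclei, centred on the anterior interpositus nucleus, after 7 days of eyeblink conditioning. Every probe set that the platform annotation assigned to one of these genes and to no other was taken, whether under its current or an older symbol. This gave 25 of the 36701 probe sets on 3 array designs, 10 on design A, 9 on design B and 6 on design C, among 15950 genes named by the annotation. No probe set with several gene symbols named a member.

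All mice were male C57BL/6, 11 to 18 weeks old, and carried 4 wires in the left eyelid and a headstage, implanted 3 days before training. Mice of the paired group heard a 352 ms tone whose end overlapped a 100 ms shock beside the eye, with the shock starting 252 ms after tone onset. Mice of the unpaired group received the same tone and shock apart from each other, in pseudorandom order. Each group was a pool of 10 to 15 nuclei taken on the side of the wired eye, which the labels date to 10 to 30 min from killing after the final trial. Each group had 1 array per design, 6 arrays in all, so no difference here has a replicate, a p-value or an error across mice. Whether the 3 arrays of a group carried RNA of the same pool is not stated in the labels. Both groups had surgery, tone and shock, so the comparison is between 2 trained groups.

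Neurofilaments are heteropolymers of the light, medium and heavy subunits, joined in the adult central nervous system by alpha-internexin. They fill large axons, set their calibre, and are abundant in projection neurons with thick myelinated axons, such as those that leave the deep nuclei. MAP1A, MAP1B, MAP2 and tau bind along microtubules and stabilise or space them. MAP2 is found mainly in dendrites and cell bodies, tau mainly in axons, MAP1B chiefly in growing neurites and MAP1A chiefly in mature neurons.

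Deposited values are on a scale taken here as log2 signal. Within each design the paired array was raised by 0.010 (A), 0.0084 (B) or 0.0067 (C) so that the brighter probe sets had a median log2 ratio of 0, and log2 ratios are paired over unpaired after this step. Probe sets with a mean signal at or above their design's median were kept, 18351 in all, and their log2 ratios had an SD of 0.19. Bacterial hybridisation controls, which are added to the sample, were lower on the paired array in all 3 designs, with median log2 ratios of -1.79 (A), -1.67 (B) and -1.92 (C) over 9 probe sets each. Their bearing on the results below was not tested. The gap between the 3' and 5' control probe sets of Actb, which widens as RNA degrades, was 0.82 to 1.17 on the log2 scale on the paired arrays and 0.96 to 1.32 on the unpaired arrays. The same gap for Gapdh was 0.35 on the paired and 0.33 on the unpaired array of design A, 0.34 and 0.53 on design B, and 0.070 and 0.072 on design C. Of 11 markers of deep nuclear projection neurons, 7 had a probe set and 5 were kept, with Slc17a6, Pvalb, Vamp1 and Syt2 each among the brightest probe sets of a design (best probe set above percentile 97), while Tbr1 and Meis2 lay under the filter.

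Most probe sets of the 8 genes gave bright signals in both pools, and differences between the pools were small. In pooled tissue, fewer cells of a type and less RNA per cell cannot be told apart. Of the 25 member probe sets 22 were kept, of which 16 were lower and 6 higher in the paired pool, with a median log2 ratio of -0.10. Among all kept probe sets 50.0% were lower by any size, with a median of 0. Both values are set by the scaling, which centres these same probe sets. With no scaling the members' counts were the same, with a median of -0.11. Under quantile scaling 13 of the 22 were lower, with a median of -0.06, as a probe set each of Nefm, Map1b and Mapt turned sign. No member was at least 1.5-fold lower, where 0.332% of all kept probe sets were. A single member probe set, of Map2, was at least 1.5-fold higher, where 0.349% of all kept probe sets were. Of the 8 gene means, 6 were lower (5 under quantile scaling, with Map1b turned) and 2 (Map2 and Nefm) higher, with a range of -0.29 to 0.33, while 51.0% of 10578 gene means were lower.

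**Figure D1:**
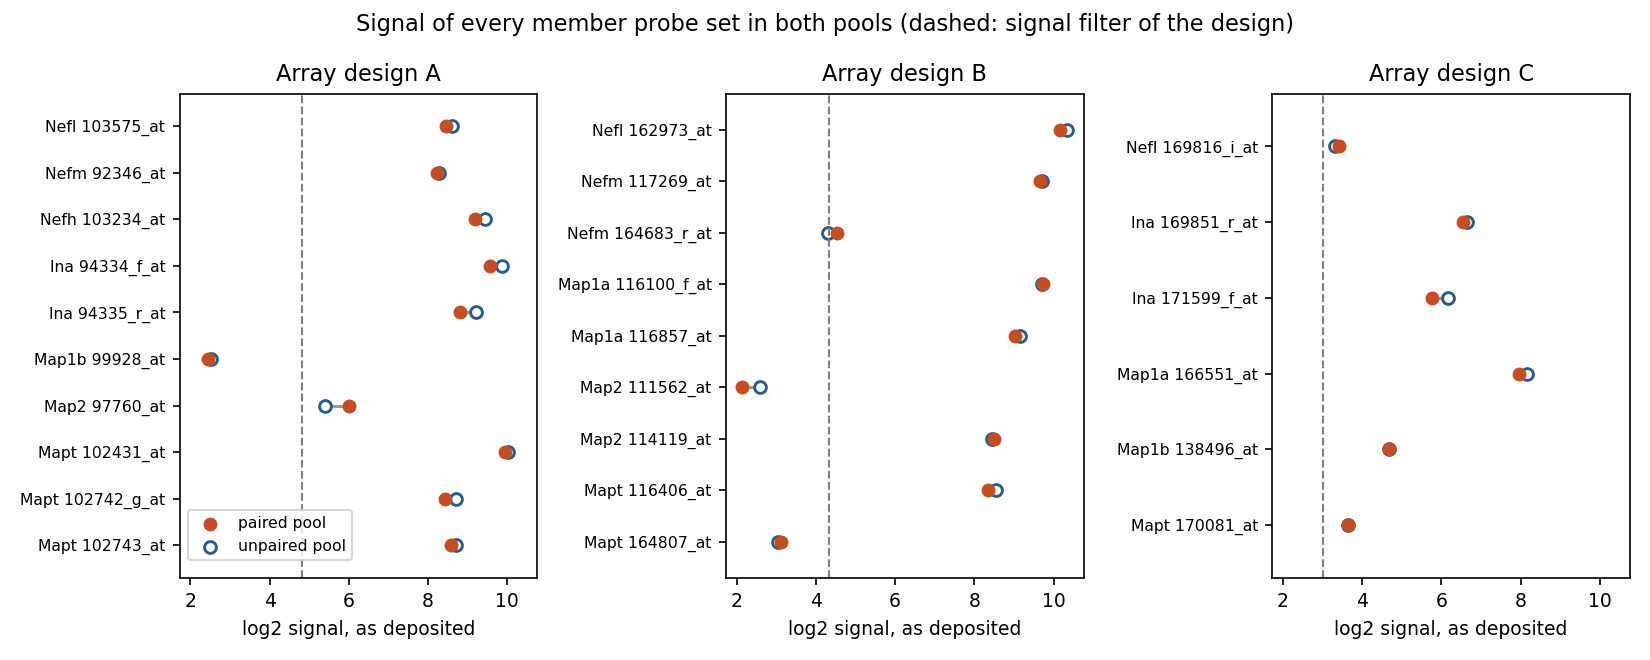
Log2 signal as deposited (horizontal axis) of all 25 member probe sets, 1 panel per array design, with the paired pool as filled and the unpaired pool as open circles; each circle is 1 array. The dashed line is the design's median, under which 3 probe sets lie; most circle pairs nearly coincide, and Map2 97760_at on design A has the widest gap among the kept ones.

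Nefl encodes the light subunit, on which the filaments are built. On design A its probe set 103575_at had a log2 signal of 8.45 in the paired and 8.60 in the unpaired pool, and on design B 162973_at had 10.17 and 10.35. Both lay high in their designs, at percentiles 94.7 and 99.9 of signal in the paired pool and 95.2 and 99.9 in the unpaired pool, and both were lower in the paired pool, with log2 ratios of -0.14 and -0.16. The dim design C probe set 169816_i_at, with 3.40 in the paired and 3.32 in the unpaired pool, was higher, with a log2 ratio of 0.09. The bright Nefl probe sets thus differed from the dim one in direction, and the gene mean was -0.07 with an SD of 0.14 over probe sets. Under quantile scaling 103575_at had -0.09 and 162973_at -0.07, and the gene mean was -0.03.

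Nefm encodes the medium subunit, whose tail projects from the filament. Its bright probe sets had nearly equal signals in both pools. On design A 92346_at had 8.22 in the paired and 8.28 in the unpaired pool, and on design B 117269_at had 9.67 and 9.71, with log2 ratios of -0.05 and -0.03. The first of these stood at 0.0042 under quantile scaling, so its direction was not settled. On design B 164683_r_at was near the filter, with 4.54 in the paired and 4.31 in the unpaired pool, and was higher, with a log2 ratio of 0.24. That dim probe set alone put the gene mean above 0, at 0.05.

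Nefh encodes the heavy subunit, the last of the triplet to appear as axons mature. It had 1 probe set, 103234_at on design A, with a log2 signal of 9.18 in the paired and 9.44 in the unpaired pool. This was a log2 ratio of -0.24, or 0.84 times the unpaired signal, and 9.79% of the kept probe sets of design A had a lower ratio. Under the other scalings it lay between -0.25 and -0.19. With a single probe set no second reading of Nefh was at hand.

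Ina, which encodes alpha-internexin, had the lowest gene mean of the 8 members, -0.29 with an SD of 0.15 over 4 probe sets. On design A 94334_f_at had a log2 signal of 9.57 in the paired and 9.87 in the unpaired pool, a log2 ratio of -0.29. On the same design 94335_r_at had 8.81 in the paired and 9.21 in the unpaired pool, a log2 ratio of -0.39, with 2.83% of the design's kept probe sets lower still. Both were annotated with 1 accession, so they read the same transcript sequence and are not independent.

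On design C 171599_f_at of Ina had 5.76 in the paired and 6.16 in the unpaired pool, a log2 ratio of -0.40 or 0.76 times the unpaired signal. The other Ina probe set of that design, 169851_r_at, had 6.55 in the paired and 6.64 in the unpaired pool, a log2 ratio of -0.08. All 4 were lower in the paired pool under every scaling tried, with gene means between -0.30 and -0.25. All 4 also carried a letter suffix, which marks probe sets that did not meet every rule of probe design or that may read related transcripts, so Ina had no unsuffixed probe set to set beside them. Without Ina, an alternative chosen after seeing the data, 12 of the remaining 18 kept member probe sets were lower, with a median of -0.05.

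The bases upstream of the transcription start are shown for Ina, the member with the lowest gene mean, and for Map1b, the member with the mean nearest 0. In both the window ends at the base before the annotated gene start. Each has 250 bases, from RefSeq build GRCm38.p6, at chr19:47014431-47014680 (plus strand, Ina) and chr13:99516603-99516852 (minus strand, Map1b). Capitals mark GC boxes (GGGCGG on either strand) and TATA boxes (TATAAA on either strand). CCAAT on either strand was also searched and was found in neither window.
Ina: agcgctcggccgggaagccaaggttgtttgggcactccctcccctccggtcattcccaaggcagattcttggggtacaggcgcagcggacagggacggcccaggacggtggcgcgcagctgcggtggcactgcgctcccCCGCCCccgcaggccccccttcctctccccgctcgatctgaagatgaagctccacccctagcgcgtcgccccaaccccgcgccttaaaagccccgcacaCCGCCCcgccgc
Map1b: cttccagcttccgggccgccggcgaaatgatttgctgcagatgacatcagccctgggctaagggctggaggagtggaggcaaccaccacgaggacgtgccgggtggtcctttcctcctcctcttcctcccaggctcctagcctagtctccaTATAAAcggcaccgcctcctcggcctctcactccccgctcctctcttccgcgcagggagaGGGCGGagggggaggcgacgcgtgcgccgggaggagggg

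Ina had 2 GC boxes and no TATA box, and Map1b had 1 of each. Of 32851 windows of the same length in the table, 32.7% held a GC box, 12.4% a TATA box and 33.8% a CCAAT box. The windows had a GC content of 70.8% (Ina) and 66.4% (Map1b), against a median of 52.4% over the table. The arrays measured transcripts and not promoters, so these letters describe the genes and no more.

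Map1a encodes MAP1A, the MAP1 form of mature neurons. Its 3 probe sets were bright in both pools. On design B 116100_f_at had 9.73 in the paired and 9.71 in the unpaired pool, a log2 ratio of 0.03, and 116857_at had 9.03 and 9.16, a log2 ratio of -0.12. On design C 166551_at had 7.96 in the paired and 8.17 in the unpaired pool, a log2 ratio of -0.20. The suffixed probe set was thus level and the unsuffixed ones lower, with a gene mean of -0.10.

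Map1b, which encodes the MAP1 form prominent in developing and regrowing neurites, had 1 kept probe set, 138496_at on design C, at 4.68 in the paired and 4.69 in the unpaired pool. Its log2 ratio was -0.0032, with no direction that held over the scalings. The other, 99928_at on design A, was among the dimmest of its design, at 2.44 in the paired and 2.51 in the unpaired pool. Both of its values lay under the 25th percentile of signal, where a ratio was not read.

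Map2 was the member with the largest gene mean above 0, and the one whose kept probe sets lay furthest apart. On design A 97760_at had a log2 signal of 6.00 in the paired and 5.40 in the unpaired pool, a log2 ratio of 0.61 or 1.52-fold. Of the kept probe sets of design A 99.8% had a lower ratio. On design B the brighter 114119_at, at percentile 98.7 of its design in the paired and 98.6 in the unpaired pool, had 8.49 and 8.44, a log2 ratio of 0.06.

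The gene mean of Map2, 0.33, therefore rested on 97760_at, and without that probe set, an alternative chosen after seeing the data, it was 0.06. The ratio of 97760_at was 0.60 with no scaling, 0.59 under quantile and 0.58 under loess scaling, the last just inside 1.5-fold. The third probe set, 111562_at on design B, had 2.14 in the paired and 2.59 in the unpaired pool, both under the 25th percentile of signal. Which splice forms of Map2 each probe set reads was not checked against sequence.

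Mapt encodes tau. It had 6 probe sets, of which 5 were kept and 4 of these were lower in the paired pool. On design A 102431_at had 9.94 in the paired and 10.01 in the unpaired pool, a log2 ratio of -0.05, and 102743_at had 8.57 and 8.71, a log2 ratio of -0.13. On the same design 102742_g_at had 8.43 in the paired and 8.69 in the unpaired pool, a log2 ratio of -0.25. The first and last of these, at -0.05 and -0.25, were annotated with 1 accession and are not independent.

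On design B 116406_at of Mapt had 8.34 in the paired and 8.55 in the unpaired pool, a log2 ratio of -0.19. On design C 170081_at had 3.65 and 3.64, a log2 ratio of 0.01. On design B 164807_at, at 3.11 in the paired and 3.04 in the unpaired pool, lay under the 25th percentile of signal. The gene mean was -0.12 with an SD of 0.11 over probe sets, and under quantile scaling 102431_at turned to 0.01 and 102743_at stood at -0.06.

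**Figure D2:**
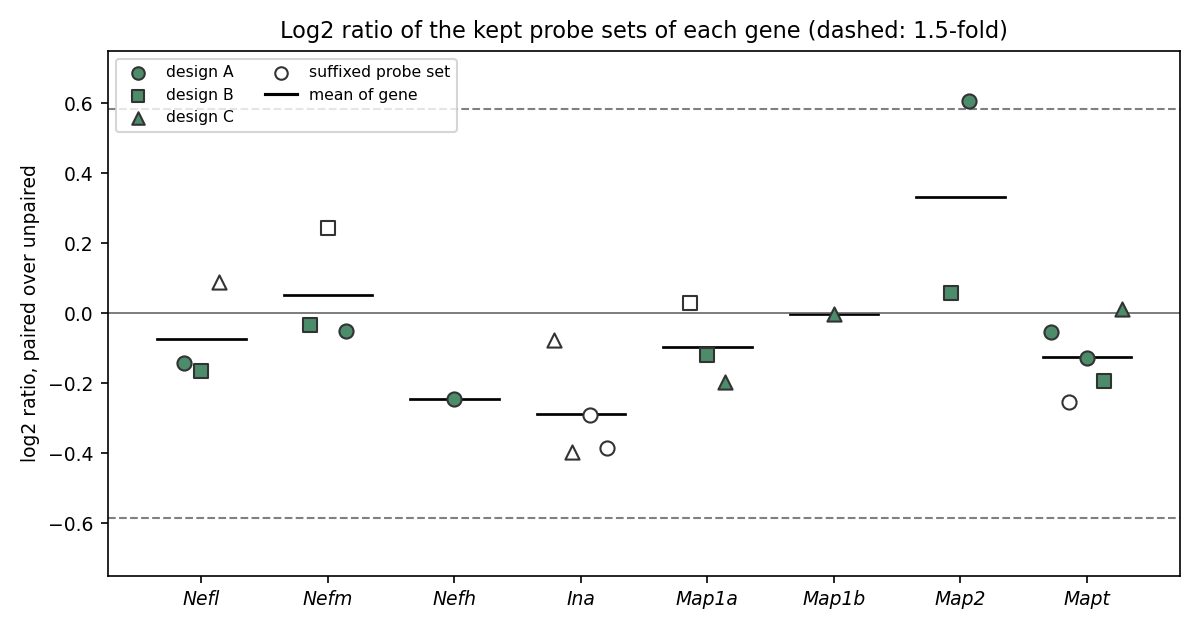
Log2 ratio, paired over unpaired (vertical axis), of the 22 kept probe sets, grouped by gene; the symbol shape gives the array design, open symbols are suffixed probe sets, bars are gene means and dashed lines mark 1.5-fold. All 4 Ina symbols lie under 0, the Nefl, Nefm, Map1a and Mapt symbols lie on both sides of it, and 1 Map2 symbol lies above the upper line.

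Member probe sets on either side of the 75th percentile of signal differed in direction, a contrast that rests on 4 dim ones. Of the 18 member probe sets whose mean signal reached the 75th percentile of their design, 16 were lower in the paired pool, with a median log2 ratio of -0.14, while 53.0% of all probe sets in that range were lower, with a median of -0.01. The 4 kept member probe sets under that percentile were all higher, from 0.01 to 0.61 with a median of 0.17. Of all kept probe sets in that range 47.0% were lower. Among bright members the median did not fall further with signal. At or above the 90th percentile 14 of 16 were lower, with a median of -0.14. Map1a 116100_f_at and Map2 114119_at, at percentiles 99.8 and 98.7, were higher. The 9 bright probe sets of Nefl, Nefm, Nefh and Ina were all lower, with a median of -0.16, and the 9 of Map1a, Map1b, Map2 and Mapt had 7 lower, with a median of -0.12. Under quantile scaling 8 of those 9 neurofilament and Ina probe sets, and 13 of the 18, were lower, beside 48.8% of all probe sets in that range. Under loess scaling, which removes a trend with signal, 9 of 9 and 16 of 18 were lower, beside 49.5%. Both scalings act to even out the directions of all probe sets of like signal. Of the 9 neurofilament and Ina probe sets, 4 were the suffixed ones of Ina.

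Bright probe sets as a whole also leaned lower on design A, where 56.2% of those at or above the 75th percentile and 61.1% of those at or above the 90th were lower. On that design all 8 bright member probe sets were lower, with a median of -0.19. On design B 4 of 6 were lower, with a median of -0.08, beside 51.0% of all probe sets in that range. On design C 4 of 4 were lower, with a median of -0.14, beside 51.7%. The part of brightness itself in the members' ratios was not tested. For the 18 bright member probe sets the median was -0.08 under quantile and -0.11 under loess scaling. For the 9 of the neurofilament genes and Ina it was -0.09 under quantile and -0.17 under loess scaling. All bright probe sets together had medians of 0.0020 and 0.0018 under these scalings, both of which act to bring such medians towards 0.

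**Figure D3:**
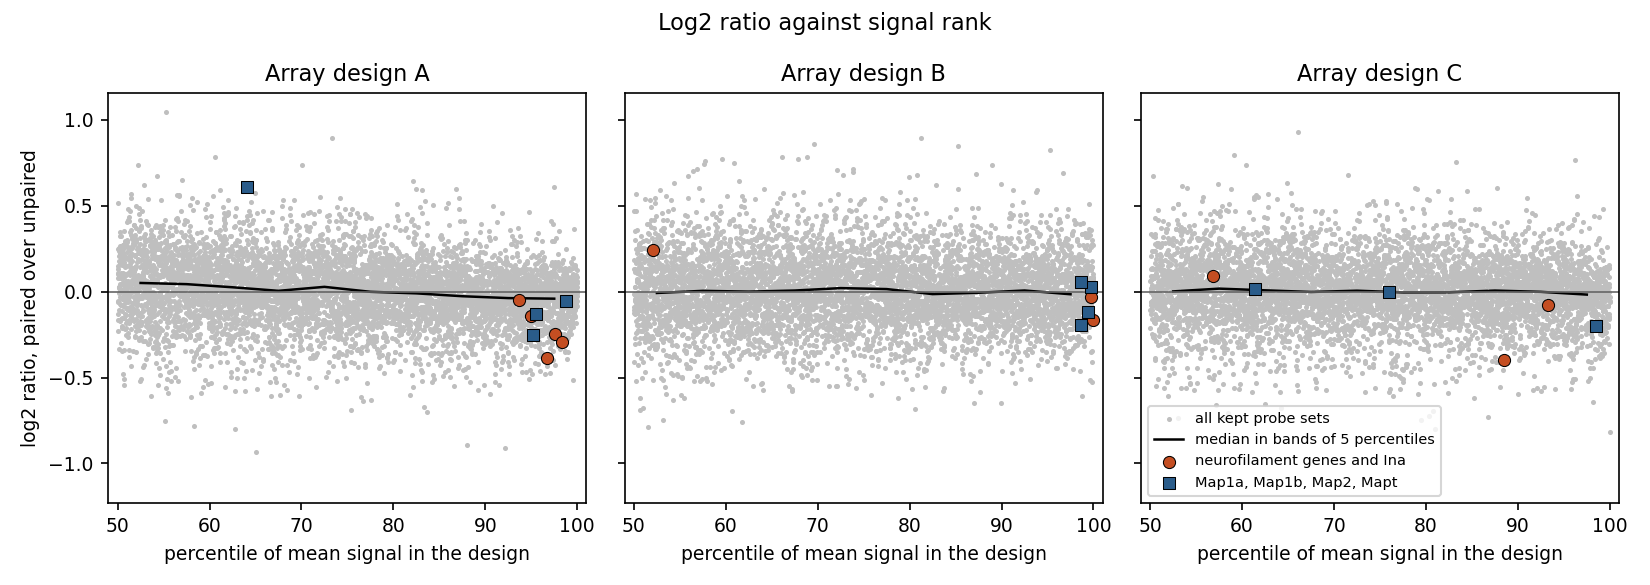
Log2 ratio, paired over unpaired, against the percentile of mean signal within each array design, with all kept probe sets in grey, their median in bands of 5 percentiles as a line, and member probe sets as circles (neurofilament genes and Ina) and squares (Map1a, Map1b, Map2, Mapt). Most members sit at the right edge, at or under 0, and the 4 members left of percentile 75 sit above 0.

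Genes that work with these proteins were compared by gene means, from lists drawn up with earlier results of these data known. Among other microtubule-associated and microtubule-end proteins 24 of 30 listed genes were measured, of which 17 were lower and 7 higher in the paired pool, with a median log2 ratio of -0.06. No gene mean lay past 1.5-fold, while a probe set each of Mapre1 (-0.61) and Dclk1 (0.79) did. Clasp2, a plus-end tracking protein that stabilises microtubules, had 7.37 in the paired and 7.64 in the unpaired pool, a log2 ratio of -0.27. Mapre3, an end-binding protein, had a gene mean of -0.25 over probe sets at -0.47 and -0.04. Mapre2, of the same family, and Dclk1, a doublecortin-like kinase, had gene means of 0.21 each, for Dclk1 over 4 probe sets from -0.17 to 0.79.

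Kinases and phosphatases that act on neurofilament tails, MAPs or tau were measured for 24 of 29 genes, 16 lower and 8 higher, with a median of -0.04. Gsk3b, a tau kinase, was higher on each of its 3 kept probe sets, from 0.15 to 0.54, with a gene mean of 0.29. Gsk3b also had a probe set on design B that lay under the filter and was lower, with a log2 ratio of -0.24. Its relative Gsk3a had 1 bright probe set, at 10.06 in the paired and 10.34 in the unpaired pool, and a log2 ratio of -0.26. Ttbk2, a tau-tubulin kinase, had -0.30 and Fyn, a tyrosine kinase that binds tau, -0.29. None of the 24 gene means lay past 1.5-fold, while a probe set of Cdk5r1 did, at -0.62.

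Other intermediate filament genes had 5 of 9 measured, 3 higher and 2 lower (4 and 1 under quantile scaling), with a median of 0.02 (0.0075 with no scaling). Gfap, the filament of astrocytes, was lower on both kept probe sets, with a gene mean of -0.27, while the nuclear lamina gene Lmnb2 had 0.10 and Nes 0.06. Prph, a filament of peripheral and some brainstem neurons, and Vim lay under the filter. Filament linkers and turnover genes had 8 of 13 measured, 4 higher and 4 lower, with a median of -0.04 (-0.06 under both quantile and loess scaling, 3 higher and 5 lower under loess). Prkar2a, a kinase A subunit that MAP2 can anchor, had 0.25 over 3 probe sets from -0.07 to 0.56, of which the brightest was lower. The spectraplakin gene Macf1 had -0.25, and Trim2, a ubiquitin ligase for the light subunit, 0.23 over 4 probe sets that were all higher.

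Markers of cell types in and around the nuclei differed between the pools as well. Markers of deep nuclear projection neurons, the cells with large neurofilament-rich axons, had 3 of 5 gene means lower, with a median of -0.12 (-0.07 under quantile scaling) and a range of -0.33 to 0.25. Their mean log2 signal was 8.36 in the paired and 8.40 in the unpaired pool. Syt2, a calcium sensor of fast synapses, had 9.15 in the paired and 9.37 in the unpaired pool, a log2 ratio of -0.22. Irx3 had -0.33 and Pvalb had a gene mean of -0.12. Slc17a6, the vesicular glutamate transporter of these neurons, had a gene mean of 0.25 from probe sets at -0.08, -0.0025 and 0.85. Vamp1 had a gene mean of 0.24 from probe sets at 0.41, 0.32 and -0.02.

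Granule cell markers, from the cerebellar cortex, were higher in 7 of 8 measured genes of 12 listed, with a median of 0.36 and a range of -0.02 to 0.89. Their mean log2 signal was 6.38 in the paired and 6.07 in the unpaired pool. Gabra6, a GABA receptor subunit of granule cells, had the highest gene mean, 0.89, followed by Fat2 with 0.47, and Neurod1, Pax6, Etv1 and Cbln3 were not among the kept genes. Purkinje cell markers were higher in 5 of 6 measured genes of 11 listed (4 of 6 with no scaling), with a median of 0.25 and a mean log2 signal of 5.57 in the paired and 5.37 in the unpaired pool. Shisa6 had 0.48 on 1 kept probe set, Car8 0.42 and Ppp1r17 0.41. Calb1 had 0.09 and Pcp2 0.01, while Slc1a6 had -0.15. Itpr1 and Pcp4 were not among the kept genes.

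Oligodendrocyte markers were lower in 8 of 10 measured genes of 13, with a median of -0.08 (-0.05 under loess scaling) and a mean log2 signal of 7.40 in the paired and 7.51 in the unpaired pool. The myelin genes Mbp and Mobp had -0.08 each, Sox10 had -0.27 and Cldn11 -0.22, while Mag had 0.05 and Mal 0.01. Astrocyte and Bergmann glia markers were lower in 6 of 8 of 9, with a median of -0.09, with S100b at -0.33, Aqp4 at 0.30, Slc1a3 at 0.29 and Gfap, shared with the filament list, at -0.27. Microglia markers were higher in 5 of 7 of 9 (median 0.06), and in 7 of 7 under quantile and loess scaling, with Cx3cr1 at 0.29 and C1qc at 0.16. Endothelial markers were higher in 2 and lower in 2 of 4 of 6 (median -0.05), with Cldn5 at -0.37 and Pecam1 at 0.23. Markers of brainstem and vestibular neurons, which lie below the nuclei and also hold neurofilaments, were higher in 3 of 4 of 8 (median 0.08), with Hoxb5 at 0.44 and Tph2 at -0.39. The part of the cells in each pool in the members' ratios was not tested.

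**Figure D4:**
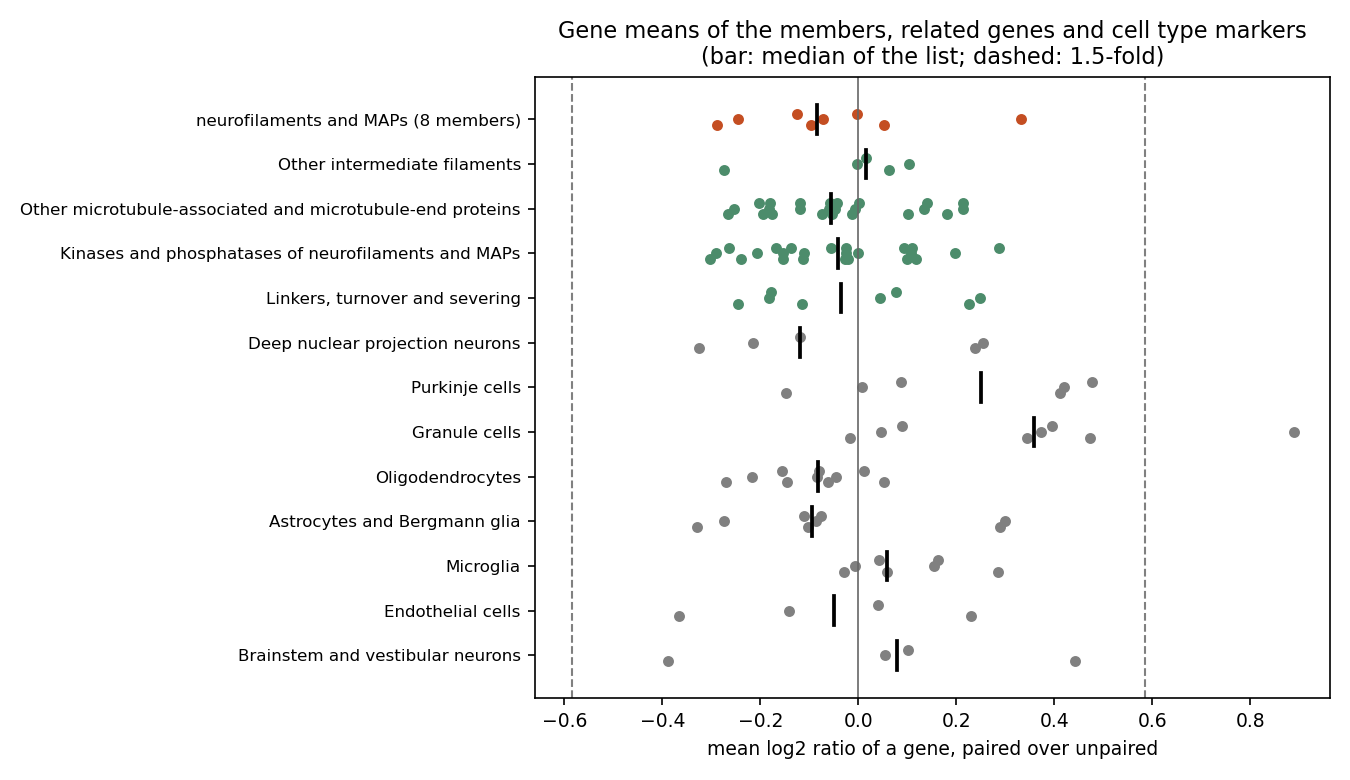
Mean log2 ratio, paired over unpaired, of each measured gene (points) for the 8 members, 4 lists of related genes and 8 lists of cell type markers, with the median of each list as a bar and 1.5-fold as dashed lines. The member median, -0.08, lies left of 0, as do those of 3 of the 4 related lists and of projection neuron, oligodendrocyte, astrocyte and endothelial markers, and the Purkinje cell and granule cell medians lie furthest right.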

How the data were processed

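Per the labels' protocols, total RNA of pooled nuclei of each training group was labelled as biotin cRNA for 1-colour arrays. The deposited values are log2 signals as far as their range tells. How the authors summarized, background-corrected and normalized them is not given in the sources used here. Letters A, B and C of the labels stand for array designs, each with its own platform annotation, and designs were never normalized together.

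Gene symbols came from the platform annotation, updated through the RefSeq gene table (GRCm38.p6), in which the identifiers of 29044 among 29137 single-symbol probe sets were found. After 198 control probe sets were left out, the paired array was shifted within each design, a floor was set at each design's 25th percentile, and probe sets whose mean signal reached the design's median were kept. A difference was counted at 1.5-fold. A gene mean averages its kept probe sets. No test was possible with 1 array per group and design, and likeness to other genes was not computed. All members were named, and of each list of related genes the 2 to 4 with the largest absolute mean. Related genes with a kept probe set past 1.5-fold were named as well. Cell type markers were named as examples after their values were seen. The members and lists were chosen with earlier results of these data known. The main setting was tested on simulated data with a constant offset between arrays and with changes larger than that of any member. Quantile and loess scaling were not tested in this way. Python 3.11.15, pandas 2.3.3 and statsmodels 0.14.6 were used.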

Additional observations from a re-analysis of the deposited data

How the results depend on the processing

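Alternatives were no, quantile or loess scaling (span 0.3), no floor or a floor at the median, other signal filters, each design alone, no suffixed probe sets, only each gene's brightest probe set, and including probe sets annotated with several symbols, none of which held a member. The probe set of Map2 past 1.5-fold was lost under loess scaling, leaving 0, with its log2 ratio at 0.58. The count was also 0 at the 75th percentile of signal, on designs B and C alone and with only each gene's brightest probe set. These last settings leave that probe set out, so they do not test its ratio. No alternative gave a member 1.5-fold lower. Lower and higher member probe sets numbered 8 and 1 on design A, 4 and 3 on B, 4 and 2 on C, 6 and 2 with each gene's brightest, 16 and 2 at the 75th percentile and 11 and 3 without suffixed ones; these counts draw on fewer probe sets. The members' median stayed under 0 in every alternative, at -0.14, -0.034 and -0.040 on designs A, B and C, -0.045 with each gene's brightest, -0.055 without a filter, -0.062 under quantile scaling and -0.052 without Ina (chosen after seeing the data). Of 96 gene means under an alternative, 8 turned sign. The 96 include settings that could not move a member. Removing the floor could not, as no kept member lay at it, and no several-symbol probe set held a member. A floor at the median moved only the Nefm mean, from 0.053 to 0.046. Nefm, at 0.05 in the main setting, had -0.04 at the 75th percentile and without suffixed probe sets. It had -0.05 on design A alone and -0.03 with only its brightest probe set.

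Among all kept probe sets, those 1.5-fold higher and lower numbered 112 and 99 with no filter, 24 and 29 at the 75th percentile, 15 and 21, 33 and 18, and 16 and 22 on designs A, B and C, 41 and 33 without suffixed probe sets, and 31 and 32 with each gene's brightest, beside 64 and 61 in the main setting. Leaving out a replicate was not possible with 1 array per group and design. Signal limits what can be said of the 3 member probe sets under the 25th percentile.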
